A study of Mus musculus with 12 samples.

Results

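miR-101a-3p and miR-101b-3p are the 3′ arm products of a pair of related mouse microRNA (miRNA) genes, Mir101a and Mir101b. They are 2 of the 874 miRNA rows listed in the mouse count tables, under the miRBase accessions MIMAT0000133 and MIMAT0000616, and both were followed through all 12 small RNA libraries. Serum came from 3 female athymic immunodeficient NCr nude mice (mice 1046, 1047 and 1069), which were 4 to 6 weeks old when xenografted. Each mouse was bled before, and again 2 weeks after, surgical implantation of human SH-SY5Y cells, an established neuroblastoma cell line, beneath the renal capsule. RNA from 50 μl of each serum was split into an aliquot depleted of tRNA-halves and an undepleted one. These 5′ tRNA fragments take up most reads in murine serum, and biotinylated DNA probes on streptavidin beads were used to remove them. This gave 4 groups of 3 libraries: before undepleted, before depleted, after undepleted and after depleted. All mice received tumour cells and none without them was analysed here at the later time point, so tumour and elapsed time cannot be told apart.

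A miRNA guides an Argonaute protein to messenger RNAs, and its bases 2 to 8, the seed, set most of that pairing. The miR-101 family is conserved among vertebrates and is known for repressing Ezh2, the histone methyltransferase of Polycomb complex PRC2. The MYCN oncogene, a driver of aggressive neuroblastoma, is another reported target. The 3′ arm of the hairpin is the one usually loaded into Argonaute, and the family is often described as tumour suppressive. In serum, fewer releasing cells and less miRNA released per cell cannot be told apart.

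The sequences of both members are shown because they determine how reads could be assigned to them. They were taken from RefSeq on GRCm38.p6, the mouse build that the authors mapped to. Capitals mark the seed.
miR-101a-3p, chr4:101346957-101346977, minus strand: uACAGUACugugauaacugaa
miR-101b-3p, chr19:29135338-29135356, plus strand: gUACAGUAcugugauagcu
miR-101c, chr9:3038680-3038698, minus strand: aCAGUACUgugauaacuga
As annotated, miR-101a-3p has 21 bases and miR-101b-3p has 19, and the latter starts 1 base earlier. Because of this shift the annotated seeds differ, ACAGUAC against UACAGUA, and neither seed occurs in another of the 1679 mature miRNA names of the table. Bases 2 to 7 of miR-101a-3p are also those of miR-144-3p, a miRNA of red blood cell precursors. Over the 18 bases where the annotated sequences overlap there was 1 difference, A16G, counted from the 5′ end of miR-101a-3p with its base given first.

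The same stretch of both hairpins shows that the shift lies in the annotated ends and not in the loci. The windows below start at the first base of miR-101b-3p or the base before miR-101a-3p, end at the last base of miR-101a-3p or its counterpart, and have the differing base in capitals.
Mir101a, chr4:101346957-101346978, minus strand: guacaguacugugauaAcugaa
Mir101b, chr19:29135338-29135359, plus strand: guacaguacugugauaGcugaa
Over these 22 bases the loci differed at 1 position (A17G, counted from the first base of the window). Reads were mapped without mismatches, so a read that covers this base fits only 1 of these 2 loci, whereas a read that ends before it fits both. The sequence of miR-101c equals bases 2 to 20 of miR-101a-3p, so reads trimmed to that stretch fit the Mir101c locus as well. How the authors counted reads that fit several loci is not stated, and miR-101a-3p is therefore the less certain of the counts.

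The complete hairpins, with both mature arms in capitals, diverge outside the 3′ arm.
Mir101a, chr4:101346945-101347027, minus strand: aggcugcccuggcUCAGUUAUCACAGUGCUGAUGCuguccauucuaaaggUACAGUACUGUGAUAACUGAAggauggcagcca
Mir101b, chr19:29135279-29135375, plus strand: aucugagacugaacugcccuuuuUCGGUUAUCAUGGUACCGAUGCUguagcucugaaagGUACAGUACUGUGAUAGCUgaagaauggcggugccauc
The 5′ arm products differed at 5 of 22 aligned bases, and their count rows could not be matched to a name. In GENCODE M21, Mir101a overlaps an exon of the long non-coding RNA gene E130102H24Rik on the same strand. Mir101b lies in an intron of Rcl1, a gene for a protein of ribosomal RNA processing, also on the same strand. These are separate chromosomes, so the members are not products of 1 primary transcript.

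Depth differed strongly between the aliquots. Undepleted libraries held 21235 to 97183 mouse miRNA counts and depleted libraries 938706 to 2271549. The smallest library of each kind was the one made from mouse 1069 before injection.

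Both members were counted in every library. miR-101a-3p was counted 61, 46 and 25 times in undepleted serum of mice 1046, 1047 and 1069 before injection and 46, 36 and 17 times after it. In depleted serum its counts were 970, 1277 and 1590 before and 1265, 1052 and 1077 after injection. The lowest count, 17, has an exact 95% Poisson interval of 9.90 to 27.2, so single undepleted values are imprecise. miR-101b-3p was counted 75, 65 and 22 times in undepleted serum before injection and 57, 29 and 33 times after it. Its counts in depleted serum were 1241, 1780 and 1174 before and 2008, 1370 and 1630 after. All intervals given here cover counting error only, since the reads carried no molecular identifiers.

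Both ranked in the upper part of the listed miRNAs, at similar levels. By mean normalised count over the 12 libraries, miR-101b-3p ranked 76 and miR-101a-3p ranked 80 among the 874 rows, with means of 256 and 217. Within single libraries miR-101a-3p ranked between 53 and 95 and miR-101b-3p between 61 and 81.

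For comparison between libraries, counts were divided by DESeq2 size factors of all 12 libraries. In depleted serum, miR-101a-3p had normalised counts of 229.7, 236 and 424 in mice 1046, 1047 and 1069 before injection and 187, 164 and 137 after it. In undepleted serum the values were 209.9, 179 and 315 before and 206, 211 and 107 after injection. Mouse 1069 was thus highest before and lowest after injection in both aliquots, and the other mice lay close together. The groups did not overlap in depleted serum, whereas they did in undepleted serum. How many other miRNAs separated in this way was not counted, so nothing is read from it.

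For miR-101b-3p, normalised counts in depleted serum were 294, 329 and 313 before injection and 296, 214 and 208 after it. In undepleted serum they were 258, 253 and 277 before and 255, 169.9 and 207 after. The values before injection lay close together in either aliquot (312 ± 18 depleted and 263 ± 13 undepleted, SD, n = 3). In undepleted serum they rest on 75, 65 and 22 counts, and the exact Poisson interval of the 22 is 13.8 to 33.3. In proportion, this counting error is wider than the spread of the undepleted values, so their closeness is not read as low variation. The values of mice 1047 and 1069 were lower afterwards in both aliquots. That of mouse 1046 was almost level, which made the depleted groups overlap.

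**Figure D1:**
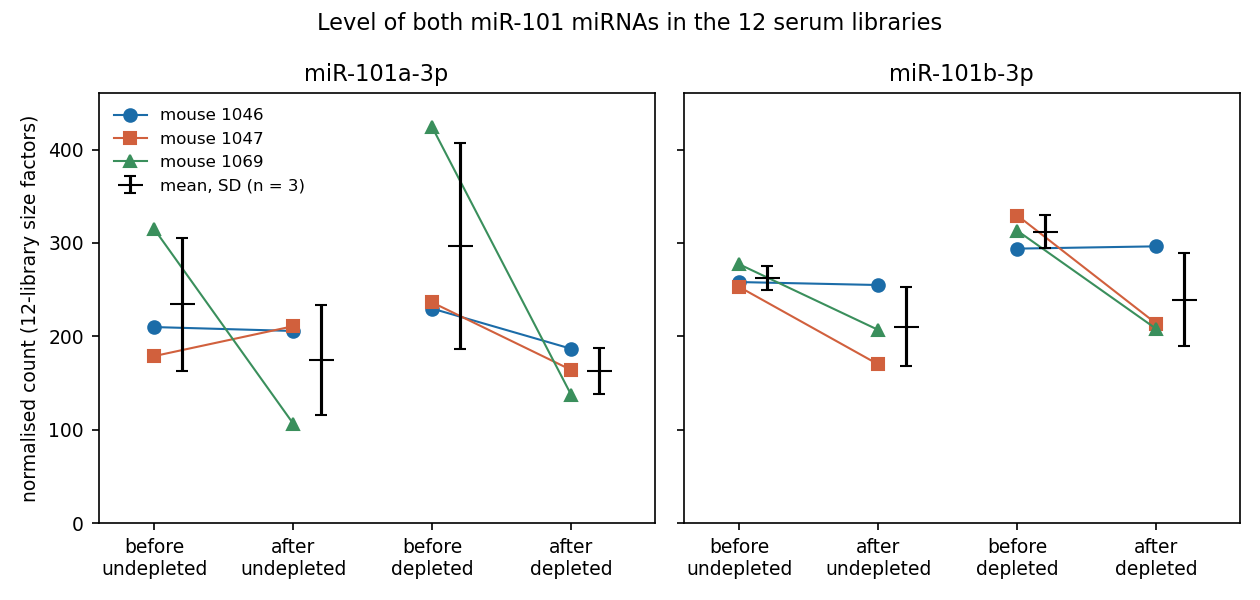
Normalised counts (y axis, linear, from 0) of miR-101a-3p and miR-101b-3p in the 4 groups of libraries (x axis). Points are libraries, lines join the sera of 1 mouse, and black bars show the mean and SD of 3 libraries. miR-101a-3p of mouse 1069 stands at 424 before and 137 after injection in depleted serum, while the miR-101b-3p values before injection cluster tightly. In undepleted serum that cluster rests on 22 to 75 counts per library, so it is closer than counting error would lead one to read.

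Ordered by group mean, miR-101a-3p was highest before injection in depleted serum (297 ± 110), then before injection in undepleted (235 ± 71), after injection in undepleted (174 ± 59) and after injection in depleted serum (163 ± 25, SD, n = 3 each). Neighbours in this order overlapped. The order of miR-101b-3p was 312 ± 18 before injection in depleted, 263 ± 13 before injection in undepleted, 239 ± 50 after injection in depleted and 211 ± 43 after injection in undepleted serum (SD, n = 3 each). Only its first neighbours did not overlap, and these are aliquots of the same sera. The undepleted aliquots among them held 22 to 75 counts, and how many other miRNAs separated in this way was not counted. The coefficient of variation of miR-101a-3p was between 15.2% and 37.2% in the 4 groups and that of miR-101b-3p between 4.86% and 20.7%. The 4.86% belongs to undepleted serum before injection, where counting error is larger than this spread.

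The sera drawn before and after injection served to try depletion on a real comparison of circulating miRNAs. The 2 members were selected on values of these same libraries, and which of the values counted is not recorded, so all contrasts below are given as a description and not as a test of the members. In depleted libraries miR-101a-3p was lower after injection, with a log2 fold change of -0.93 (standard error 0.29, DESeq2 with a prior that pulls fold changes towards 0), or 0.526 times its level before. The log2 fold change of miR-101b-3p was -0.49 (standard error 0.26), or 0.711 times. A call required a Benjamini-Hochberg adjusted p under 0.05 and a fold change of at least 2. DESeq2 called 0 of the 2 members, beside 10.6% of the mouse miRNAs it tested (33 of 310; 4.84% higher and 5.81% lower after injection). edgeR also called 0, beside 4.65% (40 of 861). In DESeq2 1 of the 2, miR-101a-3p, had an unadjusted p under 0.05, as did 28.1% of those tested (87 of 310). The DESeq2 fit takes the sera of a mouse before and after injection as independent. With mouse as a block, 1 of the 2, again miR-101a-3p, had an unadjusted p under 0.05, beside 20.3% (70 of 344). Nothing is read from the members' counts. The median log2 fold change of these 310 miRNAs was -0.09. Of the 310, 23 (7.42%) had a more negative value than miR-101a-3p and 80 (25.8%) a more negative value than miR-101b-3p.

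The value of miR-101a-3p lay near the 2-fold cut-off and depended on individual mice. Without mouse 1069 its log2 fold change was -0.49, and without mouse 1046 it was -1.17 and past the cut-off. Without the prior it was -1.01. miR-101a-3p was called in both of these fits, beside 32 of 253 tested miRNAs without mouse 1046 and 42 of 344 without the prior. Nothing is read from these calls. In single mice, the log2 ratio of normalised counts after over before was -0.30 in mouse 1046, -0.53 in mouse 1047 and -1.63 in mouse 1069. That of miR-101b-3p was 0.01, -0.62 and -0.59 in the same order. On this scale mouse 1069 had by far the lowest ratio of miR-101a-3p, while for miR-101b-3p mice 1047 and 1069 were close together.

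In undepleted libraries the log2 fold change was -0.37 (standard error 0.37) for miR-101a-3p and -0.32 (standard error 0.33) for miR-101b-3p. Here DESeq2 called 0 of the 2 members, beside 11.1% of the mouse miRNAs it tested (12 of 108; 8.33% higher and 2.78% lower). edgeR called 0, beside 3.39% (15 of 442), and 0 had an unadjusted p under 0.05 in DESeq2, beside 32.4% (35 of 108). With mouse as a block, 0 again had an unadjusted p under 0.05, beside 17.6% (28 of 159). The median of these 108 was -0.06. Without mouse 1069 the value of miR-101a-3p turned to 0.03. Its log2 ratios in single mice were -0.03, 0.24 and -1.56 for mice 1046, 1047 and 1069, and those of miR-101b-3p were -0.02, -0.57 and -0.42. The low ratio of miR-101a-3p in mouse 1069 was seen in both aliquots, which come from the same sera and so share any difference between them.

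**Figure D2:**
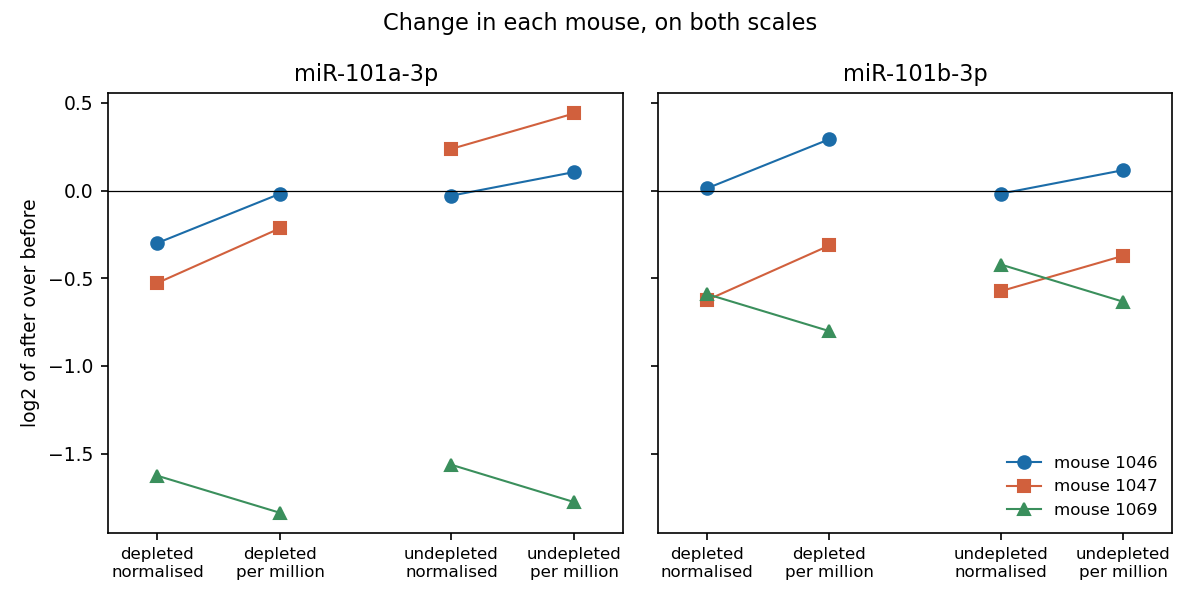
Log2 of the level after over before injection in each mouse (y axis) for miR-101a-3p and miR-101b-3p, in depleted and undepleted libraries and on the normalised and the CPM scale (x axis). Lines join the 2 scales for 1 mouse. Mouse 1069 stands at -1.63 and -1.56 for miR-101a-3p on the normalised scale, and the CPM scale lifts mice 1046 and 1047 and lowers mouse 1069.

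The scale mattered for the smaller changes. As CPM, in which counts are scaled to the mouse miRNA total of the library, miR-101a-3p in depleted serum stood at 719, 701 and 1694 before and 710.2, 604 and 474 after injection in mice 1046, 1047 and 1069. On this scale mice 1046 and 1047 hardly differed between time points (log2 ratios -0.02 and -0.22), and mouse 1069 differed by -1.84. For miR-101b-3p the CPM values were 920.4, 977.6 and 1251 before and 1127, 787 and 718 after injection. Its log2 ratios were then 0.29, -0.31 and -0.80 in depleted and 0.12, -0.37 and -0.63 in undepleted serum, so that mouse 1069 had the lowest ratio of miR-101b-3p as well. In undepleted serum the log2 ratios of miR-101a-3p were 0.11, 0.44 and -1.78, higher after injection in 2 of 3 mice. With library totals as DESeq2 size factors, a choice made after seeing the data, the log2 fold changes of miR-101a-3p and miR-101b-3p were -0.72 and -0.24 in depleted and -0.30 and -0.22 in undepleted libraries. In depleted libraries this scaling raised the median of all tested miRNAs by 0.21 on the log2 scale, which is about the amount by which both members moved.

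The miR-16-5p row (MIMAT0000527) is the only entry of the fixed blood cell lists that could be matched to an accession. miR-16-5p is abundant in red blood cells. Its normalised counts in depleted serum ranged from 27154 to 42210.4 before and from 16295 to 20273 after injection, a log2 fold change of -1.07 (standard error 0.25). In undepleted serum they ranged from 38713 to 62326 before and from 22126 to 31614 after. It was lower after injection in all 3 mice in both aliquots, with log2 ratios of -1.21 to -0.74 in depleted and -1.13 to -0.81 in undepleted serum. Among the mice, the ratio of mouse 1069 was the closest to 0 on the normalised scale but the farthest from 0 as CPM, in both aliquots, so the order of the mice depends on the scale. The part of red blood cell RNA in the values of miR-101a-3p and miR-101b-3p was not tested.

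**Figure D3:**
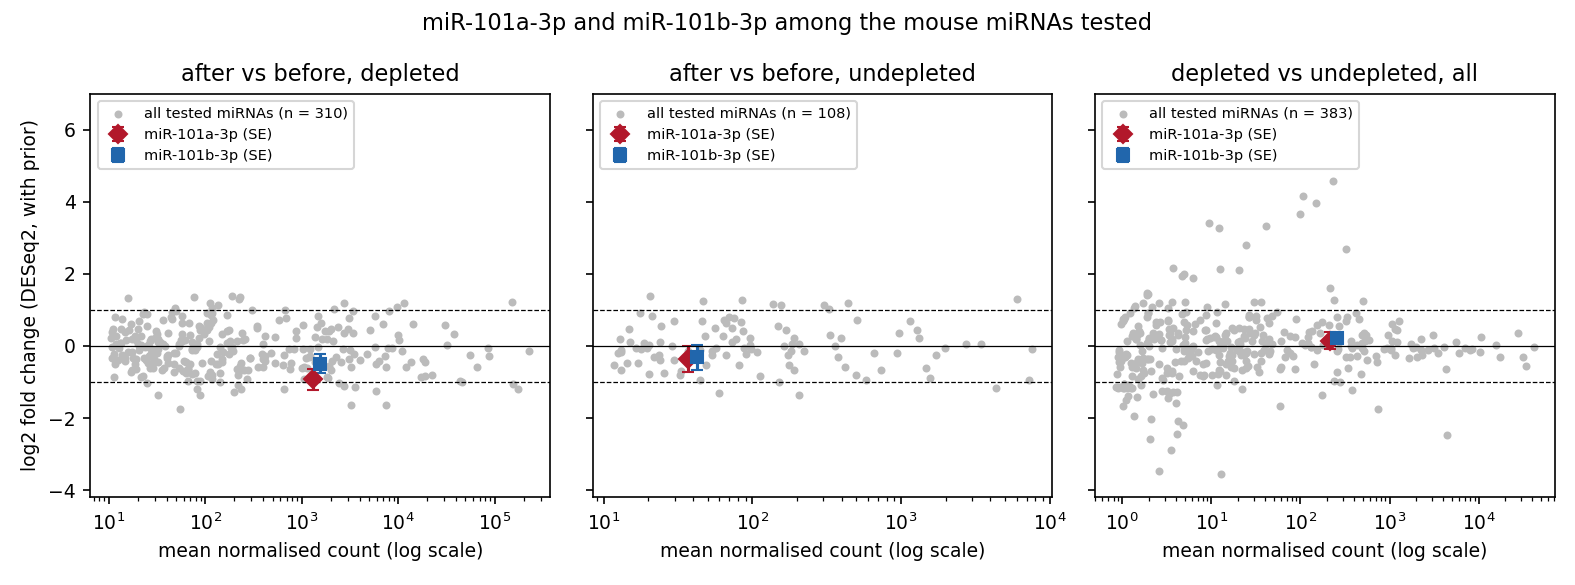
Log2 fold change (y axis, DESeq2 with prior) against mean normalised count in each fit (x axis, log scale) for all mouse miRNAs tested (grey), miR-101a-3p (red diamond) and miR-101b-3p (blue square), with standard errors for both members. Dashed lines mark 2-fold changes. Both members lie inside these lines in all 3 comparisons, miR-101a-3p closest to them in depleted libraries at -0.93.

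Next, the aliquots of each serum were compared, which addresses whether depletion alters relative miRNA levels. Over all 12 libraries, with time point as a covariate, the log2 fold change of depleted against undepleted libraries was 0.14 (standard error 0.24) for miR-101a-3p and 0.22 (standard error 0.15) for miR-101b-3p. DESeq2 called 0 of the 2 members, beside 8.36% of the mouse miRNAs it tested (32 of 383; 4.96% higher and 3.39% lower in depleted libraries). edgeR called 0, beside 5.03% (44 of 874; 34 higher and 10 lower), and 0 had an unadjusted p under 0.05 in DESeq2, beside 21.4% (82 of 383). This fit takes the aliquots of a serum as independent. With serum as a block, DESeq2 again called 0 of the 2 members, beside 27 of the 467 miRNAs it tested. In that fit 0 had an unadjusted p under 0.05, beside 21.2% (99 of 467). The normal 95% intervals of the log2 fold changes in the fit without the block, -0.33 to 0.61 and -0.08 to 0.51, lie within the 2-fold cut-off. The median log2 fold change of the 383 miRNAs was -0.04, and 304 of them (79.4%) had a larger value in size than miR-101a-3p, as did 272 (71.0%) for miR-101b-3p. Both members thus had smaller differences between aliquots than most of the 383, many of which had far lower counts. A comparison with miRNAs of like abundance only was not made.

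By serum, the log2 ratio of miR-101a-3p in depleted over undepleted aliquots was 0.13, 0.40 and 0.43 before injection in mice 1046, 1047 and 1069 and -0.14, -0.36 and 0.37 after it. It was higher in the depleted aliquot in 4 of 6 sera (mean 0.14 ± 0.33, SD, n = 6). For miR-101b-3p the ratios were 0.19, 0.38 and 0.18 before and 0.22, 0.33 and 0.01 after injection. It was higher in 6 of 6 sera, though by little (mean 0.22 ± 0.13, SD, n = 6). Without mouse 1069 the fitted value of miR-101a-3p was 0.02.

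The size of this small shift followed the normalization. With TMM factors in DESeq2 the values were 0.41 for miR-101a-3p and 0.48 for miR-101b-3p, while the median of all tested miRNAs rose by 0.26. Relative to that median, the members moved by almost nothing. Fitted within 1 time point, a choice made after seeing the data, the depletion value of miR-101a-3p was 0.41 (standard error 0.39) before and -0.09 (standard error 0.27) after injection, and that of miR-101b-3p 0.30 (standard error 0.26) and 0.19 (standard error 0.26). The interaction of time point and depletion was -0.51 (standard error 0.49) for miR-101a-3p and -0.09 (standard error 0.32) for miR-101b-3p, so neither estimate was much larger than its error. Unlike the values before it, the interaction was fitted without the prior, and it takes all libraries as independent.

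The balance of the members was then followed within libraries, where it does not depend on scaling between libraries. In depleted serum before injection, miR-101b-3p made up 56.1% of the counts of both members in mouse 1046 (95% Wilson interval 54.1 to 58.2), 58.2% in mouse 1047 (56.5 to 60.0) and 42.5% in mouse 1069 (40.6 to 44.3). After injection the shares were 61.4% (59.7 to 63.0), 56.6% (54.6 to 58.5) and 60.2% (58.4 to 62.0). miR-101b-3p was therefore the more frequent member in 5 of 6 depleted libraries, and miR-101a-3p in that of mouse 1069 before injection, whose interval lies apart from those of the other depleted libraries.

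In undepleted serum the shares of miR-101b-3p were 55.1%, 58.6% and 46.8% before and 55.3%, 44.6% and 66.0% after injection. The lowest of these, in mouse 1047 after injection, rests on 65 counts and has an interval of 33.2 to 56.7, which overlaps that of its depleted aliquot. The undepleted share of mouse 1069 before injection, 46.8% (33.3 to 60.8, 47 counts), was lower than those of the other mice, as in the depleted aliquot, but its interval overlaps theirs. The group means were 52.3% ± 8.6 before and 59.4% ± 2.5 after injection in depleted serum and 53.5% ± 6.0 and 55.3% ± 10.7 in undepleted serum (SD, n = 3 each). The aliquots of a serum differed by 1.42 ± 6.64 percentage points (depleted minus undepleted, SD, n = 6), with 3 of 6 differences positive.

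**Figure D4:**
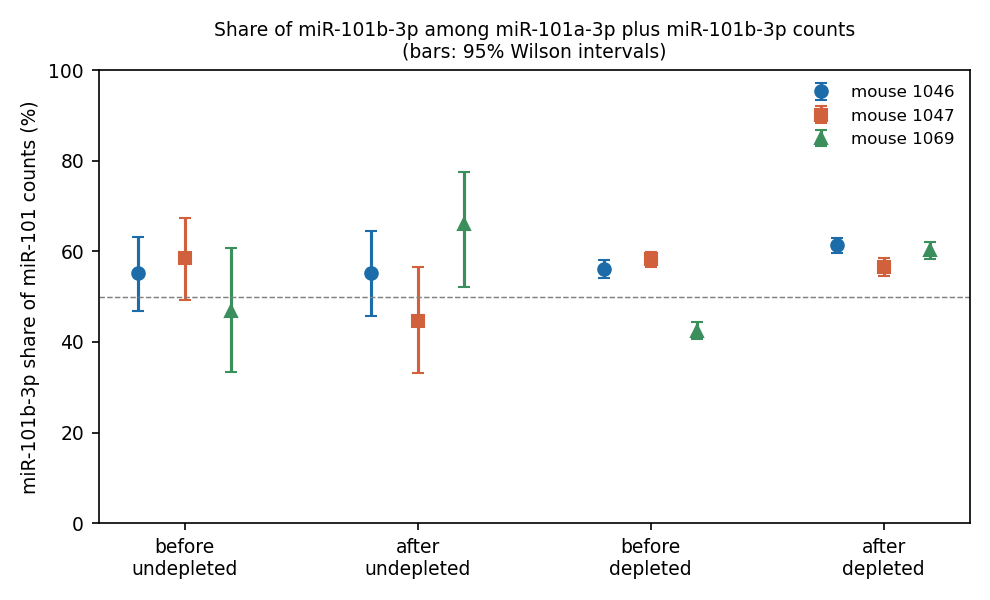
Share of miR-101b-3p (y axis, percent from 0 to 100) in the summed counts of miR-101a-3p and miR-101b-3p for each library, by group (x axis) and mouse. Bars are 95% Wilson intervals and the dashed line marks equal counts. Depleted libraries have narrow bars, and the one of mouse 1069 before injection lies lowest among them at 42.5%.

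Summed over both members, normalised counts in depleted serum were 609 ± 113 before and 402 ± 72 after injection, and in undepleted serum 497 ± 84 and 385 ± 74 (SD, n = 3 each). Mouse 1046 had the highest sum after injection in both aliquots, 483 and 461, of which the latter lay within the range of undepleted serum before injection.

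The mouse and human tables were made from the same reads, so the members were also looked up among the rows of the human tables. The human row with counts nearest to miR-101a-3p was MIMAT0000099. Summed over the 12 libraries, its counts differed from those of miR-101a-3p by 56, or 0.750% of the 7462 counts. Human and mouse reads of miR-101a-3p could therefore not be told apart by these counts. For miR-101b-3p no human row came close: the nearest, MIMAT0003339, differed by 1400 counts, or 14.8% of 9484. Other mouse rows came no nearer to it, the closest also being 1400 counts away. miR-101b-3p was thus the member without a counterpart of near-identical counts in the human tables.

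The miRNAs with the most similar profiles were sought among the 114 other mouse miRNAs whose normalised counts averaged 50 or more. Likeness was the root-mean-square difference of mean-centred log2(normalised count + 1) over the 12 libraries, which come from 6 sera of 3 mice and share their size factors. The nearest profile to miR-101a-3p was that of MIMAT0000236, at 0.26, and the nearest to miR-101b-3p was that of MIMAT0000238, at 0.20. No table used here pairs these accessions with names. The members were not each other's nearest: miR-101b-3p came at place 7 for miR-101a-3p and miR-101a-3p at place 22 for miR-101b-3p, with a difference of 0.39. For scale, the difference from a flat profile was 0.49 for miR-101a-3p and 0.27 for miR-101b-3p, so miR-101b-3p was closer to a flat profile than to miR-101a-3p and its nearest match was little closer. The median over the 114 was 0.71 for miR-101a-3p and 0.54 for miR-101b-3p.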

How the data were processed

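Small RNA libraries were prepared with the TruSeq Small RNA kit v2 (15 PCR cycles). The deposited values are raw read counts per mature miRNA, 1 mouse and 1 human table per library, in which a miRNA without reads is not listed and was taken as 0. The authors trimmed adaptors with Cutadapt (1.8.1), filtered on quality, mapped with Bowtie (1.1.2) without mismatches and assigned reads by miRBase coordinates (GRCm38/mm10 or GRCh37/hg19).

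Groups followed the labels. Mouse counts were fitted with DESeq2 1.42.0 in R 4.3.3. The study also used DESeq2, in an earlier version, to compare the time points. The terms fitted were time point in depleted and in undepleted libraries separately, and depletion plus time point over all 12, with the Wald test, zero-centred prior and median-of-ratios size factors. Scripts were tested on simulated data. The levels shown use size factors of all 12 libraries, so they differ in scale from the fits within 1 kind of aliquot. Alternatives were edgeR 4.0.16 (TMM), TMM factors, no prior, a filter of 4 counts in at least 3 libraries, a replicate block, leaving out each mouse and, added after the data were seen, library totals. Intervals and figures were made in Python 3.11.15 with SciPy 1.17.1.

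Before and after sera are paired by mouse and aliquots by serum, per the labels. Deviations from group means correlated with r of 0.43 to 0.62 for aliquots of 1 serum and -0.45 to 0.05 for the sera of 1 mouse (115 miRNAs).

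The members and lists were chosen with earlier results of these data known. By the naming rule, both members, their other arms, the human rows, the 3 most similar miRNAs of each and the listed miRNAs were to be named. No table used here pairs accessions with names, so lists of Ezh2- and Mycn-repressing miRNAs and of erythroid, liver, leukocyte and muscle markers could not be applied beyond the members and miR-16-5p, and of the similar miRNAs only the nearest are given. The members' names come from the accessions that defined them.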

Additional observations from a re-analysis of the deposited data

How the results depend on the processing

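In the 9 alternatives to each fit, both members kept the sign of their log2 fold change in all 3 comparisons, except miR-101a-3p in undepleted libraries (8 of 9, 0.03 without mouse 1069). With 1 mouse left out, the tumour values ranged from -1.17 to -0.49 (miR-101a-3p) and -0.72 to -0.32 (miR-101b-3p) in depleted libraries, and from -0.53 to 0.03 and -0.42 to -0.16 in undepleted ones. The depletion value of miR-101b-3p moved beyond the spread between sera with edgeR (0.49), TMM factors in DESeq2 (0.48) and library totals (0.36), each a rescaling that also raised the median of all miRNAs. Leaving out 1 mouse gave 11 to 32 called miRNAs in depleted and 1 to 11 in undepleted libraries (lowest both times without mouse 1047, then 19 and 7 without mouse 1069) and 19 to 33 for depletion (lowest without mouse 1046), against 33, 12 and 32 in the full fits. The causes were not tested. Scaling moved the balance of calls: library totals gave 32 higher and 5 lower in depleted libraries against 15 and 18, TMM factors 8 and 5 in undepleted ones against 9 and 3, and TMM factors 32 and 10 for depletion against 19 and 13. With the replicate block, 26 of 344, 11 of 159 and 27 of 467 tested miRNAs were called, and neither member was among them. The members' tumour values were then -0.88 and -0.50 in depleted and -0.36 and -0.32 in undepleted libraries. Their depletion values were 0.12 and 0.22. Undepleted libraries held 17 to 75 counts of a member and depleted ones 970 to 2008, with standard errors of 0.33 to 0.37 against 0.26 to 0.29 in the tumour fits.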

Other observations

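The human-table row MIMAT0000099 exceeded the counts of miR-101a-3p in each depleted library, by a few reads. The excess was 4, 6 and 12 reads before injection in mice 1046, 1047 and 1069, and 10, 9 and 13 after it. As a share of the human row this was 0.411%, 0.468% and 0.749% before and 0.784%, 0.848% and 1.19% after injection. The share was higher afterwards in 3 of 3 mice. The 95% Wilson intervals of all 6 libraries overlap, from 0.160% to 1.05% for the lowest and from 0.698% to 2.03% for the highest. In undepleted libraries the excess was 0 or 1 read. The comparison was chosen after the values were seen, was given no test, and what the extra reads are was not examined. The excess was not computed for other human rows, so it may not be particular to this one.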
